A study of Mus musculus with 24 samples.

Results

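Fos, Fosb, Fosl1, Fosl2, Jun, Junb, Jund, Egr1, Atf3 and Myc are transcription factor genes, most of which cells switch on within minutes of a growth signal, stretch or stress. They were taken by gene symbol, without regard to their values, and all 10 were among the 14912 genes of the deposited table. The samples were left ventricles of wild-type male C57BL/6J mice, of which 12 had received ANG II by osmotic mini-pump at 1500 ng/kg/min for 7 days and 12 had received saline in the same way. ANG II is the pressor peptide angiotensin II, and this infusion raises blood pressure and thickens the ventricular wall. Hearts were flushed with saline before the ventricle was taken, poly(A) RNA captured on oligo(dT) beads was sequenced, and a further 4 samples per group in the study are not used here. The labels do not say how the mice were spread over litters or days.

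Fos and Jun proteins pair through leucine zippers to form AP-1, which binds the TRE, a short palindrome in the control regions of many genes. ATF3, an activating transcription factor of the same zipper superfamily, is induced by many kinds of stress and also binds the related CRE. EGR1 is a zinc finger protein that binds GC-rich sites, and MYC, paired with MAX, raises ribosome production and growth. In cardiomyocytes these genes are the classical early response to ANG II and to stretch, a response that rises and passes within hours, whereas the ventricles here were taken at the end of an infusion of days.

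The values were FPKM, that is fragments scaled by transcript length and by library size, and were therefore per length. They were not plain FPKM, because 2741 of them were negative, and exact ties between samples placed the mice in 4 sets within which most genes had been shifted and scaled. The 278 genes (1.86%) still in whole hundredths of FPKM showed no such step. Each set held 3 ANG II and 3 control mice, numbered 1 to 3, 4 to 6, 7 to 9 or 10 to 12. Of the 10 genes, Jund was the only one among these, and 1 of the other values was negative (Fosl1 in ANG II sample 5, -0.0506). Values added up to between 460720 and 515192 per ANG II sample and between 482603 and 567972 per control. Fragment totals are not given in the sources used here, so the counting error of the low genes is unknown.

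The promoters of Fos, Junb and Jun are shown because, once the mean of each group in each set was removed, Fos and Junb moved together from mouse to mouse while no such relation passed for Jun. Each is the 250 bases before the RefSeq start on GRCm38.p6, written 5′ to 3′ on the strand of the gene, and none overlapped an exon of the GENCODE vM21 annotation. Capitals mark the TATA box TATAAA, the short CRE core TGACG and, in Jun, the variant site TGACATCA.
Fos, chr12:85473640-85473889, plus strand: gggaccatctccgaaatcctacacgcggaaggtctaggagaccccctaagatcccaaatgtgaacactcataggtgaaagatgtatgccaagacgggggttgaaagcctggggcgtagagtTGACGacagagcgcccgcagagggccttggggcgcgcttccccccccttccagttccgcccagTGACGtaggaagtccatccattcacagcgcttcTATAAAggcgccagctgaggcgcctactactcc
Junb, chr8:84978749-84978998, minus strand: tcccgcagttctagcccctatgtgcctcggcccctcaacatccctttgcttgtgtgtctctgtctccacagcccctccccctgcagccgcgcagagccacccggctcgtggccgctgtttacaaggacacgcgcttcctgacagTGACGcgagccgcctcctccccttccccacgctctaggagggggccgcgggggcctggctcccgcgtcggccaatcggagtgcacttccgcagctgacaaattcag
Jun, chr4:95052223-95052472, minus strand: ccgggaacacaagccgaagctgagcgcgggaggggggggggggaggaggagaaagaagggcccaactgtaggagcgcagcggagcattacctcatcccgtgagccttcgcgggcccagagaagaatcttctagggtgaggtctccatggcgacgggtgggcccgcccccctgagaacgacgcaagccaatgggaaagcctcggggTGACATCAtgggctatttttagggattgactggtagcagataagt
TGACG, which is contained in the full CRE TGACGTCA, was found in the windows of Fos, Fosb, Junb and Atf3, that is 4 of the 7 genes searched, against 17.7% of 32817 promoter windows of this length. Those 4 windows held 58.4%, 68.8%, 66.4% and 65.2% G and C, against a median of 52.4% over all windows. Fosb, whose window held TGACG, had a rank correlation (Spearman's rho) with Fos of 0.182. The part of these motifs in the relations between mice was not tested. TATAAA was found in Fos alone (12.4% of all windows), and TGACATCA in Jun alone (2.93%). The full CRE (1.55%), the TRE TGACTCA (4.46%) and the CArG box bound by serum response factor (1.47%) were in 0 of the 7 windows. All were searched on both strands. Sites farther upstream than these 250 bases were not searched, so the 0 counts do not extend to them. The Jund window ended at 70697738, before the GENCODE gene start at 70698949. The windows of Fosb, Fosl2 and Atf3 overlapped exons of their own genes. Fosl1 and Myc had no entry, and the promoter and position of Egr1 are not reported here. On the same build the Fos gene lies at chr12:85473890-85477273, Fosb at chr7:19302696-19310051, Fosl1 at chr19:5447547-5455946, Fosl2 at chr5:32135801-32157842, Jun at chr4:95049034-95052222, Junb at chr8:84974484-84978718, Jund at chr8:70698949-70700616, Atf3 at chr1:191170296-191218039 and Myc at chr15:61985391-61990374.

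Averaged over all 24 mice, Jund had the highest level of the 10 genes at 71.2 FPKM, above 93.4% of the genes in the table. Junb (27.8), Egr1 (26.3) and Jun (24.7) followed, with ranges that overlapped. Atf3 (12.6), Fosl2 (12.3) and Fos (9.05) formed the next tier, and Myc (4.56) and Fosb (2.40) lay below the median gene (6.08). Fosl1, at 0.418 FPKM, was above only 16.0% of genes. The ANG II group and the control group overlapped for every one of the 10 genes.

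**Figure D1:**
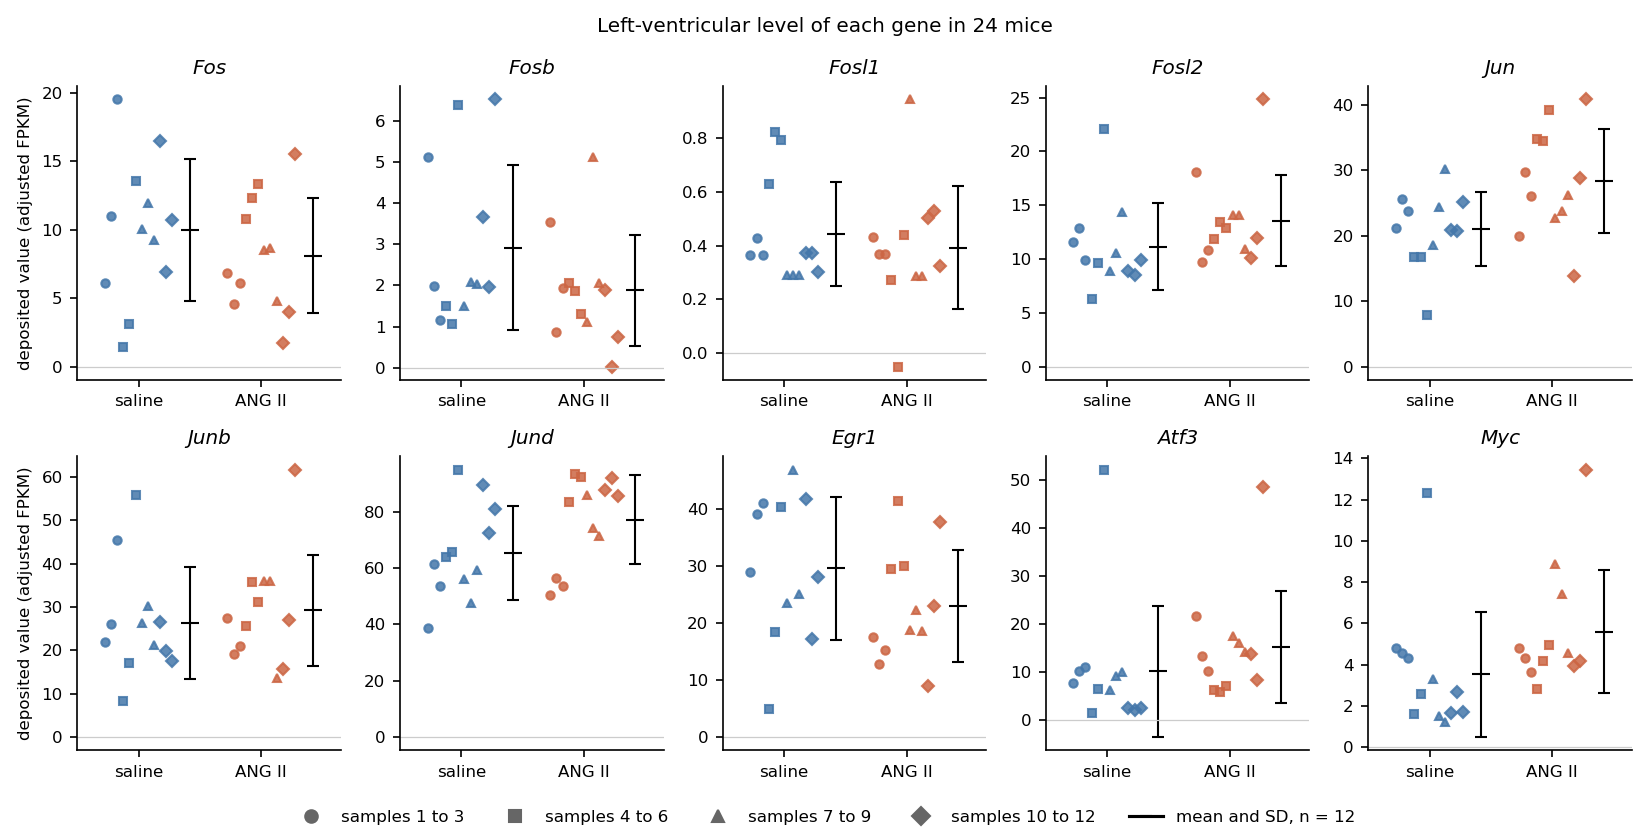
Deposited level of each gene (FPKM after adjustment by set, y axis) in 12 saline control mice (blue) and 12 ANG II mice (orange), with the marker shape giving the set and the black bar the mean and SD. The groups overlapped in every panel, and the highest Atf3 and Myc values came from control 6 (52.1 and 12.3) and ANG II 12 (48.5 and 13.4).

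The comparison of ANG II with saline asked whether these genes stood at another level after 7 days of infusion. In limma on log2(value + 1), 1 of the 10 genes, Myc, passed an adjusted p of 0.05, where 33.5% of the 14026 genes tested did so. Myc also passed the added criterion of a log2 fold change over 0.5 in size, which 5.92% of all genes met. At an unadjusted p under 0.05 there were 3 of 10 (Jun, Atf3 and Myc), where the share of all genes was 44.7%. The log2 fold change was above 0 for 6 genes and below 0 for 4, with a median of 0.21 against 0.05 for all genes. The spacing of the values was that of an adjustment by set with the group as a covariate, and p-values on the deposited values do not carry the error of that step.

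**Figure D2:**
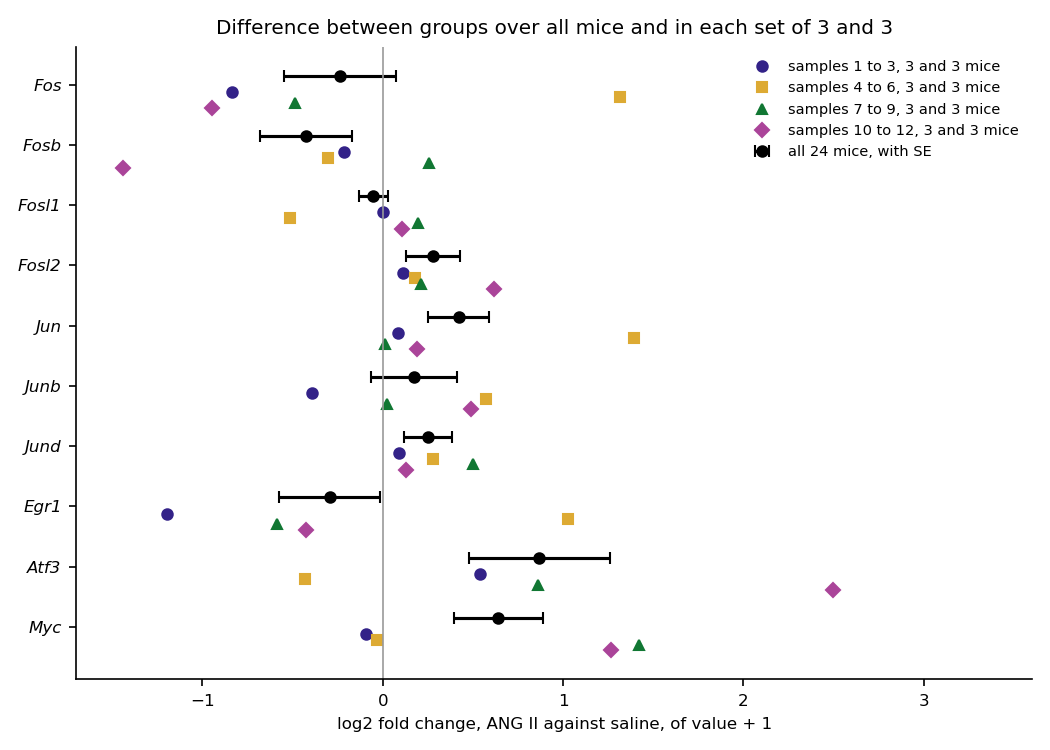
Log2 fold change of value + 1 (x axis) for each gene over all 24 mice (black, with SE) and in each set of 3 ANG II and 3 control mice (coloured). Jun, Jund and Fosl2 lie to the right of 0 in all 4 sets, while Fos and Egr1 lie to the left in 3 sets and at 1.31 and 1.03 in samples 4 to 6.

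Within the Fos family no gene passed limma over all mice. Fos, the founding member, ranged from 1.72 to 15.5 FPKM (median 7.71) in ANG II mice and from 1.45 to 19.5 (median 10.4) in controls. Its lowest values were in control 4 and ANG II 10. A mean of 8.09 ± 4.21 (SD, n = 12) against 10.0 ± 5.20 gave a log2 fold change of -0.24 ± 0.31 (SE, limma, adjusted p = 0.574). By set the fold change was -0.83, 1.31, -0.49 and -0.95. In samples 4 to 6 the controls averaged 6.03, with 1.45, 3.09 and 13.6 in the 3 mice, and the ANG II mice 12.1. Deposited ANG II means in the other sets were 5.83, 7.33 and 7.08, and control means 12.2, 10.4 and 11.4. Because Fos was shifted and scaled by set, its levels cannot be compared between sets, only its differences within a set.

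Fosb, whose truncated product accumulates with repeated stimulation in brain, had the lowest fold change of the Fos genes, at 1.88 ± 1.35 FPKM against 2.91 ± 2.01. ANG II mice spanned 0.0309 to 5.12 and controls 1.06 to 6.52, with 3 ANG II mice below every control. The log2 fold change of -0.43 ± 0.25 did not pass (limma, adjusted p = 0.196). The difference was concentrated in samples 10 to 12, where the means were 0.886 and 4.05 (log2 fold change -1.44, limma within the set, adjusted p = 0.218). In that set alone 0.15% of all genes passed.

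Fosl2, which encodes FRA-2, the family member tied to tissue fibrosis, leaned the other way. Its median was 12.4 FPKM in ANG II mice (9.76 to 24.8) and 9.90 in controls (6.25 to 22.1), and 11 of 12 ANG II mice lay above the control median. The log2 fold change was 0.28 ± 0.15 (limma, adjusted p = 0.147), and 0.11, 0.18, 0.21 and 0.61 by set. Control 6 was the highest control. Without it the log2 fold change was 0.37 and 3 of the 10 genes passed (Fosl2 at an adjusted p of 0.0330, Atf3 and Myc), where 29.9% of all genes did in limma. Fosl1, which encodes FRA-1, was near 0 in both groups, at 0.392 ± 0.230 and 0.444 ± 0.194 FPKM (limma, adjusted p = 0.632), and controls 7, 8 and 9 shared 1 lowest value, 0.289. In samples 4 to 6 alone Fosl1 was lower with ANG II (log2 fold change -0.51, limma within the set, adjusted p = 0.0285), where 27.1% of all genes passed.

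In the Jun family all 3 genes had a higher mean with ANG II. Jun, Jund and Fosl2 were the 3 of the 10 genes whose log2 fold change had 1 sign in all 4 sets, as 34.6% of all genes were. Jund, the broadly expressed member that restrains growth in several cell types, was the one gene whose values had not been adjusted. It ranged from 50.5 to 93.4 FPKM (median 84.5) in ANG II mice and from 38.8 to 94.8 (median 62.5) in controls. The ANG II mean was above the control mean in every set: 53.6 against 51.2, 89.6 against 74.7, 77.1 against 54.3 and 88.4 against 81.0. Over all mice the log2 fold change was 0.25 ± 0.13 (limma, adjusted p = 0.144), a fit in which the distance between sets counts as spread. With labels exchanged only within the sets, Jund differed between groups (exact permutation test, two-sided, p = 0.00671, adjusted over all genes p = 0.0304), and with the set as a term in limma the adjusted p was 0.0204. In the exact test 3 of the 10 genes had a p under 0.05 (Jund, Myc and Jun), where 40.6% of all genes did. Jund alone passed after adjustment over all genes, which 27.4% of genes did.

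Jun, the transforming partner in AP-1, was at 28.4 ± 8.00 FPKM with ANG II and 21.0 ± 5.67 with saline. ANG II mice spanned 13.8 to 40.9 (median 27.6) and controls 7.94 to 30.2 (median 21.0), and 4 ANG II mice, numbers 4, 5, 6 and 12, lay above every control. The log2 fold change was 0.42 ± 0.17 (limma, adjusted p = 0.0578). Most of it came from samples 4 to 6, with a mean of 36.2 against 13.8 and a log2 fold change of 1.39 (limma within the set, adjusted p = 0.00436), where 27.1% of all genes passed. Samples 1 to 3, 7 to 9 and 10 to 12 gave 0.08, 0.01 and 0.19, and leaving samples 4 to 6 out gave 0.10 (limma, adjusted p = 0.669). Jun passed when ANG II 1, ANG II 10, control 2 or control 9 was left out, with adjusted p-values down to 0.0154.

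Junb, an early gene that can oppose Jun on some promoters, overlapped between groups, with ANG II 12 above every control and control 4 below every ANG II mouse. ANG II mice ranged from 13.5 to 61.7 FPKM (median 27.3) and controls from 8.33 to 56.0 (median 24.03), with a log2 fold change of 0.17 ± 0.24 (limma, adjusted p = 0.596). Both extremes on the high side, ANG II 12 and control 6, were also the highest of their groups for Fosl2, Atf3 and Myc. By set the log2 fold change of Junb ran from -0.39 in samples 1 to 3 to 0.57 in samples 4 to 6.

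Egr1, the early zinc finger gene, behaved like Fos across the sets. It ranged from 9.05 to 41.4 FPKM (median 20.6) with ANG II and from 4.88 to 47.0 (median 28.5) with saline, and the log2 fold change was -0.30 ± 0.28 (limma, adjusted p = 0.424). In samples 1 to 3 the 3 ANG II mice, at 12.9 to 17.6, lay below the 3 controls, at 29.0 to 41.0 (log2 fold change -1.20, limma within the set, unadjusted p = 9.01e-05, adjusted p = 0.211). In that set alone 0% of all genes passed. In samples 4 to 6 the direction turned (1.03), with control 4 at 4.88 and ANG II 5 at 41.4. Egr1 was lower with ANG II once samples 4 to 6 of each group were left out (log2 fold change -0.74, limma, adjusted p = 0.0212). Atf3 (1.30) and Myc (0.86) passed as well in that fit, as did 20% of all genes. With samples 1 to 3 left out the Egr1 fold change was 0.00.

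Atf3 had the largest fold change of the 10 genes. ANG II mice ranged from 5.79 to 48.5 FPKM (median 13.4) and controls from 1.42 to 52.1 (median 7.03). A single control, control 6 at 52.1, was above every ANG II mouse, while the next control was at 11.0. The log2 fold change was 0.87 ± 0.39 (limma, adjusted p = 0.0884), and without control 6 it was 1.12 (limma, adjusted p = 0.0114). By set it was 0.54, -0.43 and 0.86 in samples 1 to 9 and largest in samples 10 to 12, where the 3 ANG II mice, at 8.25 to 48.5, lay above the 3 controls, at 2.11 to 2.49. In samples 7 to 9 alone Atf3, Jund and Myc passed (limma, adjusted p = 0.0314, 0.0498 and 0.0379), where 4.33% of all genes did.

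Myc was the gene that passed over all mice. ANG II mice ranged from 2.81 to 13.4 FPKM (median 4.44) and controls from 1.24 to 12.3 (median 2.64), and 12 of 12 ANG II mice lay above the control median. The log2 fold change of 0.64 ± 0.25 (limma, adjusted p = 0.0462) lay close to the threshold. It came from samples 7 to 9 and 10 to 12, with means of 6.97 against 2.02 and 7.19 against 2.02 (log2 fold changes 1.42 and 1.26), while samples 1 to 3 (-0.09) and 4 to 6 (-0.03) gave none. Leaving out 1 mouse kept the call in 9 of 24 fits (without ANG II 2, 3, 4, 9 or 10 or control 1, 2, 3 or 6). It was lost in the 15 others, with adjusted p-values of 0.0501 to 0.0809. With the set as a term the adjusted p was 0.0665.

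Control 6 and ANG II 12 stood apart in several of these genes. Control 6 was the highest control for Fosl2, Junb, Jund, Atf3 and Myc and the lowest for Jun (7.94), and ANG II 12 was the highest of its group for Fos, Fosl2, Jun, Junb, Atf3 and Myc. Without both mice, a setting chosen after the values were seen, 3 of the 10 genes passed in limma, where 30.8% of all genes did: Myc (log2 fold change 0.69, adjusted p = 0.00584), Atf3 (0.96, adjusted p = 0.0159) and Fosl2 (0.29, adjusted p = 0.0436). Jun then stood at 0.26 (limma, adjusted p = 0.155). Control 6 also had the lowest summed level of any control for the fibroblast (662, against a control median of 1436), smooth muscle and pericyte (267) and atrial myocyte (2.81) markers. ANG II 12 had the lowest of its group for the macrophage (238, against a median of 411), endothelial (335) and smooth muscle and pericyte (338) markers and the highest for the neutrophil markers (25.3). Values below 0 count as 0 in these sums, and Col1a1, Col3a1, Tagln and Cnn1 were at 0 or below in some mice. The part of these marker levels in the result was not tested.

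The spacing of the values allowed the differences within each set before the adjustment to be recovered for 9 of the 10 genes, all but Fosl1. Jun then had the higher mean with ANG II in 4 of 4 sets, by 1.40, 27.1, 2.71 and 4.99 FPKM, and differed between groups on average by 9.05 FPKM (exact permutation test within sets, two-sided, unadjusted p = 0.0223). Jund, by 11.9 FPKM (exact permutation test, unadjusted p = 0.00671), was the other of 2 genes under 0.05 among the 9 tested. The Myc difference was 1.49 FPKM (exact permutation test, unadjusted p = 0.453) with the higher mean in 2 of 4 sets, and in samples 4 to 6 it was -3.30. For Atf3 it was 2.34 FPKM (exact permutation test, unadjusted p = 0.779) and was above 0 in 3 of 4 sets, by 5.26 in samples 1 to 3 and 5.13 in samples 7 to 9, with the sign turned in samples 4 to 6. The Fos difference was -2.11 FPKM and the Egr1 difference -4.64 FPKM, each below 0 in 3 of 4 sets (exact permutation test, unadjusted p = 0.353 and 0.456). These tests are on the FPKM scale, on which high values weigh more than on the log2 scale.

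**Figure D3:**
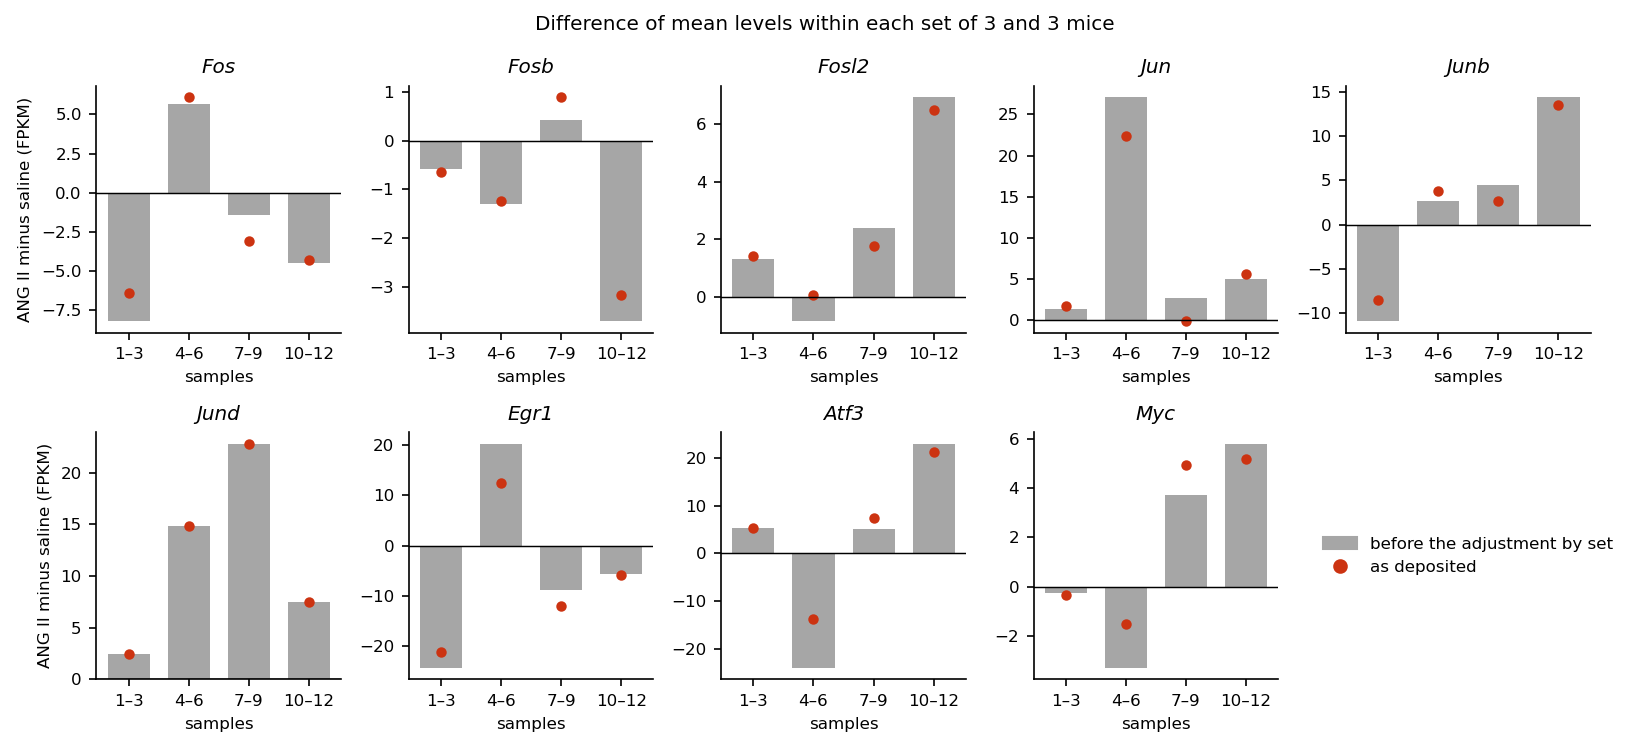
ANG II mean minus saline mean in FPKM (y axis) in each set of 3 and 3 mice (x axis), before the adjustment by set (grey bars) and as deposited (red points), for the 9 genes recovered. The bars of Jun and Jund are above 0 in all 4 sets, and those of Fos, Egr1, Atf3 and Fosl2 change sign in samples 4 to 6.

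Whether the difference between groups varied with the set was tested with a group by set interaction in limma. At an adjusted p under 0.05 the count was 0 of the 10 genes, where 7.49% of all genes passed, and at an unadjusted p under 0.05 it was 6 (Fosl1, Jun, Fos, Egr1, Myc and Atf3), where 25% of all genes did. The lowest adjusted p-values were those of Fosl1 (0.0552) and Jun (0.0721). The sets are known from ties between values, not from the labels.

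Mice that were high in Fos for their group and set were also high in Junb and Egr1, under every alternative tried, while the relations with Atf3 and Fosl2 depended on the setting. The mean of each group in each set was removed from log2(value + 1), and each of the other 9 genes was compared with Fos over 24 mice. With Junb, Pearson's r was 0.934 (permutation test, p = 2.0e-05, adjusted p = 0.000180) and Spearman's rho 0.898 (permutation test, p = 0.000110, adjusted p = 0.000990). With Egr1, r was 0.867 (permutation test, p = 0.00100, adjusted p = 0.00450) and rho 0.741 (permutation test, p = 0.00145, adjusted p = 0.00435). With Atf3, r was 0.810 and rho 0.750 (permutation test, p = 0.0108 and 0.00128, adjusted p = 0.0286 and 0.00435). With Fosl2 they were 0.768 and 0.637 (permutation test, p = 0.0127 and 0.0129, adjusted p = 0.0286 and 0.0290). These 4 of 9 relations passed, adjusted over the 9. Whether this exceeds the share of all genes related to Fos in this way was not tested. Without the 2 mice farthest from the median of Fos, control 6 and ANG II 12, r was 0.890 for Junb, 0.797 for Egr1, 0.629 for Atf3 and 0.545 for Fosl2. With only the group means removed, Atf3 did not pass (rho 0.244, permutation test, adjusted p = 0.311) and Jun did by rho (0.50, permutation test, adjusted p = 0.0359) but not by r (0.425, permutation test, adjusted p = 0.106). In that setting differences between sets stay in the deviations, and mice were permuted across sets. Its results therefore mix sets with mice and do not describe mice of the same set alone. By rho, Fosl2 did not pass with negative values kept (permutation test, adjusted p = 0.0690) or without samples 4 to 6, 7 to 9 or 10 to 12 (permutation test, adjusted p = 0.163, 0.0862 and 0.0949).

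Myc (r 0.746 and rho 0.574, permutation test, p = 0.0281 and 0.0326, adjusted p = 0.0506 and 0.0586) and Jund (r 0.539 and rho 0.495, permutation test, p = 0.0581 and 0.0588, adjusted p = 0.0872 and 0.0882) did not pass. Nor did Jun, with an r of 0.0703 and a rho of -0.10 (permutation test, p = 0.885 and 0.740, adjusted p = 0.889 and 0.832), Fosb (r 0.170 and rho 0.182) or Fosl1 (r 0.0204 and rho -0.0414). Without samples 1 to 3 Myc did pass (r 0.820 and rho 0.725, permutation test, adjusted p = 0.0480 and 0.0438). Of the 45 pairs of the 10 genes, 13 had a rho above 0.5 and 14 a rho below 0. The share over pairs of all genes is not given here. Genes outside the 10 could be as close, such as Inhbb with Fos (rho 0.845) and with Junb (rho 0.903).

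**Figure D4:**
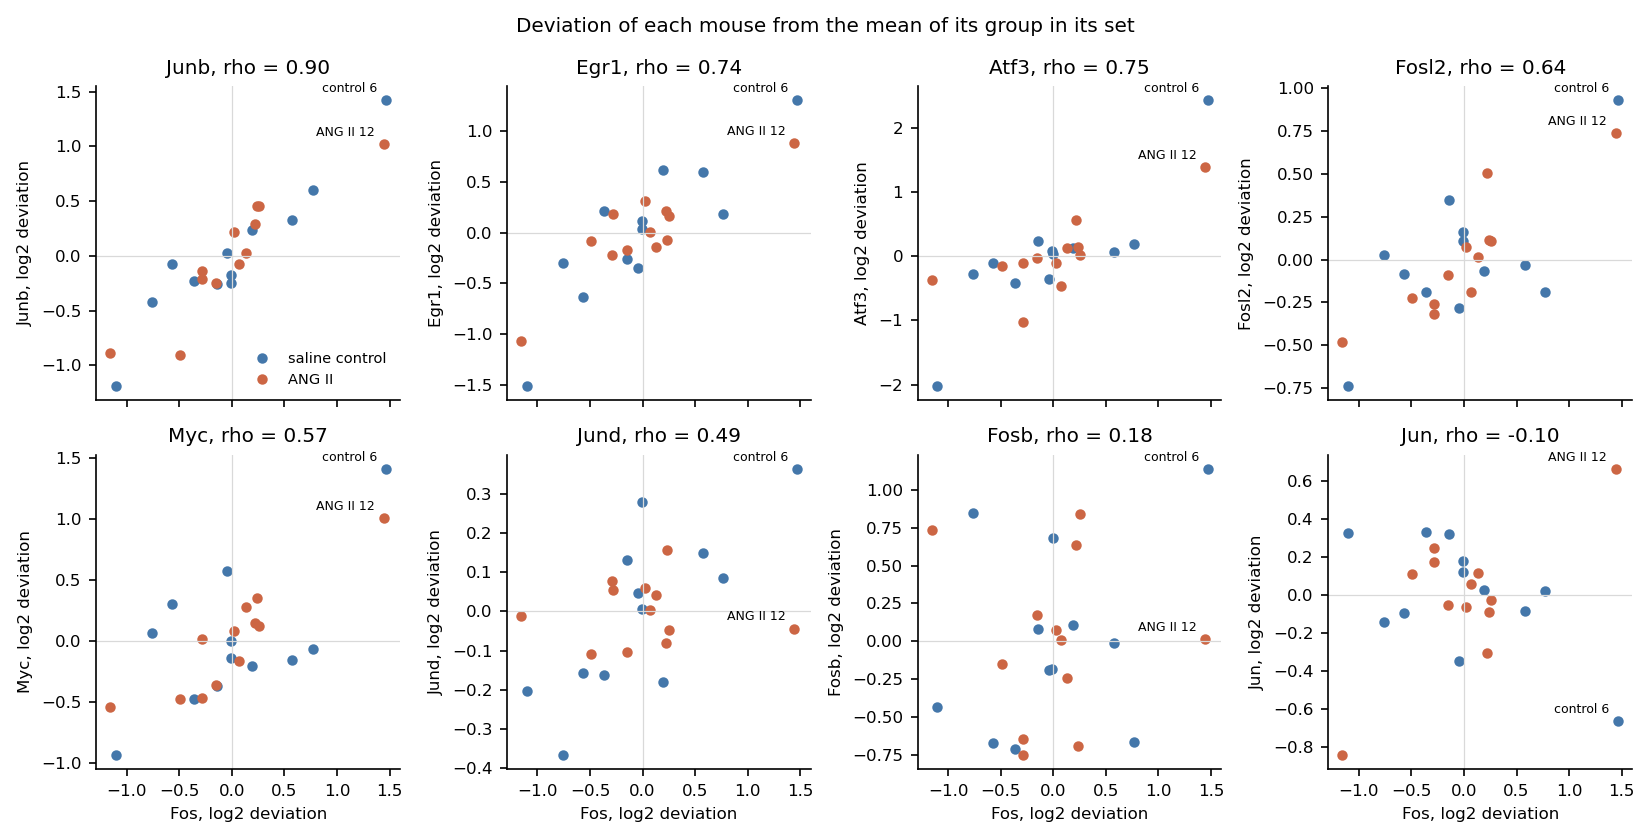
Deviation of each mouse from the mean of its group in its set on the log2 scale, Fos on the x axis and another gene on the y axis, for 12 saline (blue) and 12 ANG II (orange) mice. Points rise along a line for Junb (rho 0.90) and Egr1 (0.74) and form no line for Jun (-0.10), and control 6 and ANG II 12 lie at the far right.

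The genes whose deviations were most like those of each member were sought among 11458 genes with a mean of at least 1, by Spearman's rho over the 24 mice. They are a description, with no test. For Fos these were Junb (rho 0.898) and Inhbb, an inhibin and activin subunit (0.845), and for Junb they were Inhbb (0.903) and Fos. Egr1 was nearest to Adamts4, a matrix protease (0.810), and then Fos (0.741). Atf3 was nearest to Fosl2 (0.805) and Otud1, a deubiquitinase (0.803). Fosl2 was nearest to Akap12, a kinase anchor (0.853), and Apold1, an endothelial early gene (0.838). Myc was nearest to Socs3, the feedback inhibitor of JAK-STAT signalling (0.892), and Abtb1 (0.773). Fosb was nearest to Irf2bp2 (0.763) and Nfkbia, the inhibitor of NF-κB (0.756). Jun was nearest to Dcaf6 (0.730) and Kank3 (0.728), neither of them one of the 10 genes.

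Genes that act with, before or after the 10 genes were read from 9 lists. In the counts that follow, a gene is higher or lower where limma passed an adjusted p of 0.05 over all genes, as 20.9% of all genes did upward and 12.6% downward (2928 and 1769 genes). That split was 1922 and 2930 under quantile normalization and 1173 and 1629 without samples 4 to 6. Of 31 other immediate early genes, 10 were higher and 0 lower (median 0.24 on the log2 scale). The largest were Ctgf (1.63 ± 0.50, 1 value negative) and Cyr61 (0.90 ± 0.32), secreted matrix proteins driven by YAP and serum response factor, and Gadd45b (0.78 ± 0.16), a stress gene. With samples 4 to 6 left out Ctgf stood at 1.22 and Cyr61 at 0.56 (limma, adjusted p = 0.0595). Of 27 other zipper proteins that can pair with or resemble AP-1, 11 were higher and 0 lower (median 0.22), led by Creb3l1 (0.57 ± 0.19), Maf (0.47 ± 0.15) and Cebpa (0.45 ± 0.16). That count was 5 without samples 4 to 6.

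Upstream, of 36 receptor, MAP kinase and serum response factor genes, 5 were higher and 5 lower, with a median of 0.01 that became -0.04 under quantile normalization. The counts were 3 higher and 7 lower under quantile normalization, and 0 higher and 5 lower without samples 4 to 6. The kinases Rps6ka2 (-0.49 ± 0.10) and Map2k6 (-0.42 ± 0.07) fell, and Mkl1, a serum response factor coactivator (0.34 ± 0.09), Rps6ka1 (0.33 ± 0.13) and Elk3 (0.29 ± 0.09) rose. The 3 that rose did not pass without samples 4 to 6 (limma, adjusted p = 0.121, 0.589 and 0.329). Of 20 genes that damp this signalling, 3 were higher and 2 lower, or 1 and 4 under quantile normalization and 1 and 3 without samples 4 to 6. The MAP kinase phosphatases Dusp10 (-0.49 ± 0.07) and Dusp7 (-0.36 ± 0.09) fell, and Spry1, an inhibitor of receptor tyrosine kinase signalling (0.32 ± 0.05), Dusp2 (0.28 ± 0.08) and Dusp16 (0.20 ± 0.06) rose, of which Dusp2 and Dusp16 did not pass without samples 4 to 6 (limma, adjusted p = 0.158 and 0.117).

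Around Myc, 3 of 17 partners and antagonists were higher and 2 lower (median 0.06, or -0.01 under quantile normalization). Mxd3, a MAX-binding repressor found in dividing cells, rose most, from 0.893 ± 0.605 to 3.14 ± 1.16 FPKM (log2 fold change 1.12 ± 0.17, limma, adjusted p = 3.1e-05). Mycl (0.24 ± 0.05) and Mxd4 (0.19 ± 0.07) were also higher, and Ruvbl2 (-0.17 ± 0.06) and Mlx (-0.15 ± 0.06) lower. Of 30 known Myc targets, 6 were higher and 5 lower, with a median of 0.00 that became -0.04 under quantile normalization. Npm1, a nucleolar chaperone, rose from 64.5 to 90.3 FPKM (0.46 ± 0.09) and Gnl3, another nucleolar protein, rose by 0.28 ± 0.06. Rrp9 (-0.28 ± 0.06), which processes ribosomal RNA, and the mitochondrial genes Hspe1 (-0.24 ± 0.07) and Shmt2 (-0.22 ± 0.05) fell.

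Known AP-1 targets were the list with the largest share past the test, 20 of 26 higher and 0 lower, with a median of 0.90. Without samples 4 to 6 the count was 14 higher and 0 lower (median 0.64), and under quantile normalization 19 higher and 1 lower. This list, like the others, was chosen with earlier results of these data known. Nppa, the atrial natriuretic peptide gene, averaged 2050 ± 1080 FPKM with ANG II and 432 ± 1482 with saline, Timp1, a metalloprotease inhibitor, 48.8 ± 26.7 against 7.56 ± 11.9, and Hmox1, the heme-degrading enzyme, 42.5 ± 23.2 against 13.9 ± 12.3. Their log2 fold changes (6.96, 3.09 and 2.04) rest on 7, 4 and 2 negative values that were set to 0. The saline SD of Nppa exceeded its mean, and summed atrial myocyte markers ran from 2.81 to 3238 FPKM in controls. The part of atrial tissue in the Nppa level was not tested. Of 18 Egr1 targets, 6 were higher and 1 lower (median 0.16), with Col1a2 (2.49), Fn1 (2.08, each with 3 negative values set to 0) and Tgfbr2 (0.63) higher and F3, tissue factor, lower (-0.26 ± 0.08). The count was 2 higher and 1 lower without samples 4 to 6, where Col1a2 (0.51), Fn1 (0.46) and Tgfbr2 (0.35) did not pass (limma, adjusted p = 0.0510, 0.0891 and 0.0529). Of 19 genes of the integrated stress response, the programme through which ATF4 induces ATF3, 11 were higher and 0 lower (median 0.31), led by Nupr1 (1.41 ± 0.34), Gdf15 (0.99 ± 0.23) and Ddit4 (0.76 ± 0.16). Macrophage markers, given below, were higher in 9 of 9, and their part in these counts was not tested.

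**Figure D5:**
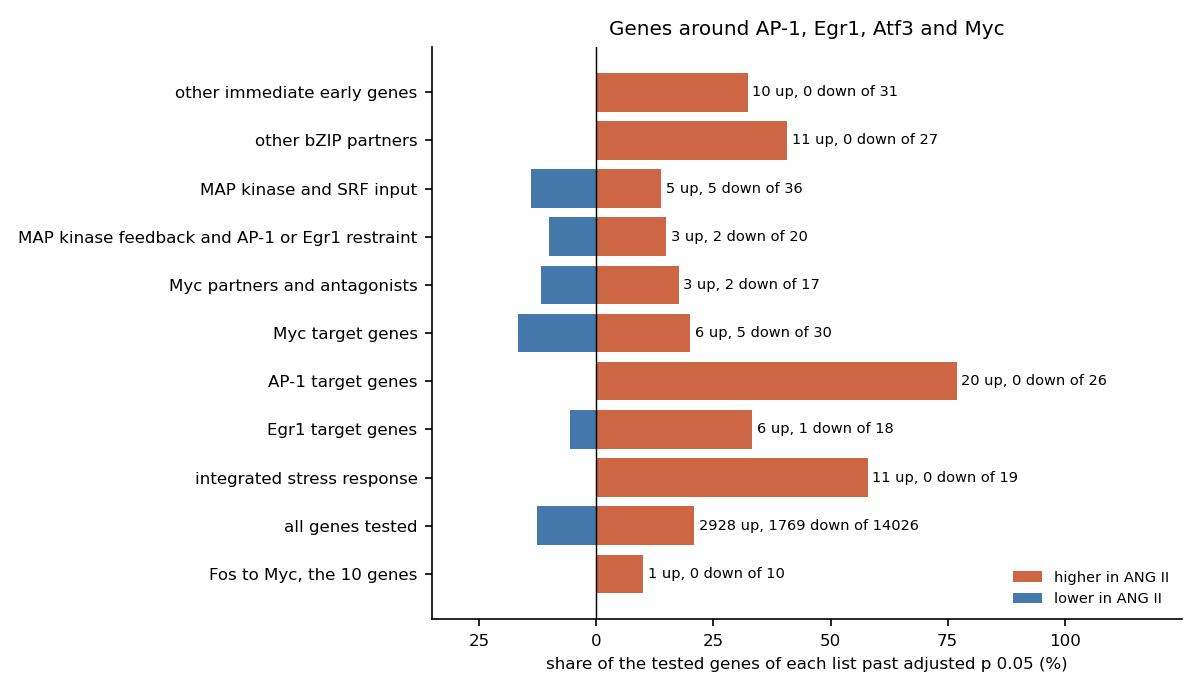
Share of the tested genes of each list (x axis, percent) that were higher (orange, to the right) or lower (blue, to the left) in ANG II mice in limma at an adjusted p under 0.05, with the counts printed beside the bars. AP-1 targets reach 76.9% to the right, all genes 20.9%, and the 10 genes themselves 10%.

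In ventricle RNA, fewer cells of a type and less RNA per cell cannot be told apart. The tissue label was met by the cardiomyocyte markers, whose summed level was 51409 to 68153 FPKM in controls and 38050 to 55653 in ANG II mice, with 5 of 8 lower and 0 higher (median -0.31 on the log2 scale). Under quantile normalization 2 of 8 were lower and the median was -0.01, with Mb at -0.15 (from -0.59) and Myl2 at -0.04 (from -0.50). Macrophage markers were higher in 9 of 9 (summed level 238 to 707 against 173 to 382), a count that was 0 of 9 without samples 4 to 6 (limma). Fibroblast markers were higher in 3 of 8 and lower in 1 (1084 to 2961 against 662 to 1548), and red blood cell genes were higher in 5 of 6 (779 to 6445 against 92.3 to 2949). Of the endothelial markers 1 was higher and 1 lower of 7 (335 to 542 against 362 to 467), of the smooth muscle and pericyte markers 2 and 2 of 8 (338 to 512 against 267 to 458), and of the neutrophil markers 1 higher of 5 tested (2.34 to 25.3 against 4.86 to 46.1). Of the atrial myocyte markers, 5 of 6 were in the table and 0 of 5 passed in limma, and their summed level ran from 9.03 to 2392 against 2.81 to 3238, with Sln, Myl7, Myl4 and Dkk3 at 0 or below in some mice. Col1a1, Col3a1, Tagln, Cnn1, S100a8, S100a9, Retnlg, Ly6g and Hba-a2 were also at 0 or below in some mice. Without samples 4 to 6 fibroblast markers were higher in 1 and lower in 1, with a median of 0.02 (from 0.35). Smooth muscle and pericyte markers were then higher in 0 and lower in 2 (limma). Of 7 heat shock genes, which respond to cell stress, 2 were higher (1298 to 1794 against 1095 to 1848). The part of these shifts in the levels of the 10 genes was not tested.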

How the data were processed

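Left ventricular RNA of 12 ANG II and 12 saline mice was sequenced. Per the labels, the submitters' processing notes name HISAT, Bowtie2 and RSEM, and the authors deposited 1 FPKM value per gene and sample. Because 2741 deposited values are negative, they were treated as a score on the FPKM scale, adjusted by set. The paper's methods name no such step. Tool versions, genome build and fragment counts are not given in the sources used here.

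Samples sharing at least 100 exact ties were joined into sets. Negative values were set to 0, except in printed levels of single genes. Genes were fitted with limma 3.58.1 (R 4.3.3) on log2(value + 1), with the variance prior following intensity, where their mean reached 0.1 (14026 genes), and p-values were adjusted over all 14026 by the Benjamini-Hochberg method. Called genes had an adjusted p under 0.05. Fold changes are on the log2(value + 1) scale, which understates those of low genes. The exact test within sets used all 160000 relabelings and correlations used 100000 permutations, all two-sided (Python 3.11.15, numpy 2.4.6, scipy 1.17.1). Differences before the adjustment were recovered from the spacing of values, with steps of 0.01. Scripts were tested on simulated data.

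The 10 genes and the lists were chosen with earlier results of these data known. Named genes were the 10, up to 3 genes per list with the largest change among those called and up to 2 called in the other direction, and the 2 genes most like each of the 10 with a mean of at least 1, except that those for Jund are not reported here. Alternatives were a pseudocount of 0.1, other filters, median-ratio and quantile scaling, no trend, a rank-sum test, a replicate block, the set as a term, and leaving out mice or sets. The setting without control 6 and ANG II 12 was chosen after seeing the data.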

Additional observations from a re-analysis of the deposited data

How the results depend on the processing

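The number of the 10 genes past the adjusted p was 1 over all mice, where 33.5% of all genes passed. It was 0 under median-ratio scaling, the rank-sum test and quantile normalization (1922 of all genes higher and 2930 lower). Without samples 7 to 9 or without samples 10 to 12 it was also 0, and without samples 1 to 3 it was 2. It was 3 without samples 4 to 6 (20% of all genes passed) and without control 6 and ANG II 12 (30.8%). Fits of a single set gave 0, 2, 3 and 0 in the order of the samples, where 0%, 27.1%, 4.33% and 0.15% of all genes passed. With 1 mouse left out the number was 0 to 3 (3 without control 6, where 29.9% of all genes passed). For settings printed here without a share, the share of all genes past the adjusted p is not given. The number meeting both criteria (1) was 0 under median-ratio scaling, quantile normalization, the rank-sum test, the set as a term, without samples 7 to 9 and without samples 10 to 12, 3 without samples 4 to 6, 2 without control 6 and ANG II 12, and 0, 2, 2 and 0 in the single sets. Leaving out 1 mouse gave 0 to 2. The share of all genes meeting both criteria in these settings is not given here. The labels give both groups the numbers 1 to 12. Deviations of same-numbered mice from their group means correlated at -0.557 to -0.00109. Of 12 pairs 0 were above 0.1, and 0 ANG II mice were closest to their own number. Same-numbered mice share a set, and deposited set means of adjusted genes could run opposite ways in ANG II and control mice. For Fos they were 5.83, 12.1, 7.33 and 7.08 with ANG II and 12.2, 6.03, 10.4 and 11.4 with saline. Opposite set means push such correlations below 0, so the check cannot decide whether the numbers pair the mice. With the replicate block 1 gene passed the adjusted p (Jund, 0.0271, in place of Myc, 0.0786) and 0 met both criteria.

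Directions turned as follows, on the log2 scale. In samples 4 to 6 alone Fos was 1.31, Egr1 1.03, Atf3 -0.43 and Myc -0.032. In samples 1 to 3 alone Junb was -0.39, Myc -0.091 and Fosl1 0.0028. In samples 7 to 9 alone Fosb was 0.26 and Fosl1 0.20, and in samples 10 to 12 alone Fosl1 was 0.10. Without samples 4 to 6 Fosl1 was 0.10, and without samples 1 to 3 Egr1 was 0.0047. The causes were not tested. No direction turned under another pseudocount, filter or scaling. Without samples 4 to 6 the called genes numbered 5 of the zipper proteins (11 over all mice), 5 of the MAP kinase and serum response factor genes (10), 3 of the Myc partners (5) and 3 of the Egr1 targets (7). Counts of relations with Fos (3 to 5, against 4) stayed within 1.5 times, but Fosl2 was lost in 4 settings and Myc was added without samples 1 to 3. Jun took the place of Atf3 with only group means removed, a setting that keeps the differences between sets. Counts of the exact test within sets (2, against 3) and of the interaction (0) stayed within 1.5 times under their alternatives. Differences before the adjustment have no adjusted p, being recovered for the 10 genes only, and so give no count of genes past it. A single set rests on 3 and 3 mice, and fragment totals are not known.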

Other observations

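Of the 11 genes outside the 10 that were named as most like one of them between mice, 5 differed between groups in limma at an adjusted p under 0.05, where 33.5% of all genes did. Apold1, the endothelial early gene nearest to Fosl2, was higher in ANG II mice by a log2 fold change of 0.83 (adjusted p = 0.0220). Adamts4, nearest to Egr1, was higher by 0.61 (limma, adjusted p = 0.00162), Nfkbia, near Fosb, by 0.51 (limma, adjusted p = 0.000391), Irf2bp2, nearest to Fosb, by 0.37 (limma, adjusted p = 0.000734) and Dcaf6, nearest to Jun, by 0.10 (limma, adjusted p = 0.0461). Egr1 and Fosb themselves had log2 fold changes of -0.30 and -0.43. Inhbb, nearest to Junb, had 0.43 (limma, adjusted p = 0.0759) and Socs3, nearest to Myc, 0.37 (limma, adjusted p = 0.347).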
